A study of Mus musculus with 6 samples.

Results

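The ligands of the tumor necrosis factor (TNF) superfamily were followed in splenic B cells that had been treated with CL097, an agonist of the endosomal RNA sensor TLR7, or left without a stimulus. The 10 ligand genes were chosen by symbol, as Tnf, Lta, Ltb, Tnfsf4, Tnfsf8, Tnfsf9, Tnfsf10, Tnfsf13b, Tnfsf14 and Tnfsf15, and all 10 were among the 23420 genes of each library. Of these, 8 reached the lowest level that was tested, and they did so in all 6 libraries. Tnfsf8 reached it in 1 library and Tnfsf13b in none, so neither was tested.

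There were 3 unstimulated and 3 CL097 libraries, numbered 1 to 3 within each condition. The cells came from 3 male TLR9-/- MRL/lpr mice of 5 to 7 weeks with wild-type Tlr7, so every library shares the TLR9 deficiency and the Fas lpr allele of this lupus-prone strain. B cells were enriched on beads by removing cells that carry CD43, the T cell markers CD4 or CD8, or the myeloid markers Gr-1, CD11b or CD11c, and cultured for 4 h with CL097 at 5 µg/ml or without it. The comparison asks what engaging TLR7 does to B cell transcripts when TLR9 is missing, and in a Fas-deficient strain it describes a model of autoimmunity and not healthy B cells.

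Most ligands of this superfamily are made as trimeric membrane proteins, several of which are cut from the cell surface and act as soluble cytokines. Each binds receptors of the matching receptor superfamily, which pass signals to NF-kB and MAP kinases or, where they carry a death domain, to cell death. In B cells, surface lymphotoxin maintains follicular dendritic cells and the follicles of the spleen, TNF is an early inflammatory product, and OX40 ligand and 4-1BB ligand costimulate T cells.

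Lta, Tnf and Ltb are neighbors on chromosome 17 and are shown first by sequence, because they lie side by side and did not respond alike. In GENCODE M21 (GRCm38, the assembly called mm10) Ltb spans 35194439 to 35196320 on the plus strand with 8 exons, Tnf spans 35199381 to 35202007 on the minus strand with 6 exons, and Lta spans 35203165 to 35205351 on the minus strand with 4 exons. Tnf lies 1.16 kb from Lta and 3.06 kb from Ltb. Tnfsf15, the ligand with the largest difference between the conditions, spans 63727084 to 63745113 on the minus strand of chromosome 4 with 4 exons. The 250 bases before the RefSeq start of each gene are printed 5′ to 3′ along the strand of the gene (RefSeq, GRCm38.p6), at chr17:35194257-35194506 for Ltb (plus), chr17:35202008-35202257 for Tnf (minus), chr17:35205352-35205601 for Lta (minus) and chr4:63745060-63745309 for Tnfsf15 (minus). Capitals mark a match to the NF-kB consensus.
Ltb promoter: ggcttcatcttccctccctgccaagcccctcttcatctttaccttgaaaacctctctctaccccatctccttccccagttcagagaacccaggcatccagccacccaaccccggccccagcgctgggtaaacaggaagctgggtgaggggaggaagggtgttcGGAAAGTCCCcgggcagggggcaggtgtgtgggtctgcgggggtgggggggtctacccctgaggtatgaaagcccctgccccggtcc
Tnf promoter: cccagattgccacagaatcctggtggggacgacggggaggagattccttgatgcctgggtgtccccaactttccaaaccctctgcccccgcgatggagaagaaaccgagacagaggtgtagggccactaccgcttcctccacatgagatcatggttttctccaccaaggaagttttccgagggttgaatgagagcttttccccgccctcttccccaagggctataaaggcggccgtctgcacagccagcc
Lta promoter: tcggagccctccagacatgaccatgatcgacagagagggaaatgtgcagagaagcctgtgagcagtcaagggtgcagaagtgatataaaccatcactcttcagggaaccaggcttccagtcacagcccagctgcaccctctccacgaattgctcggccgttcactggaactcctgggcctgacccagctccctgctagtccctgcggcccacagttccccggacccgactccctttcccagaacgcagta
Tnfsf15 promoter: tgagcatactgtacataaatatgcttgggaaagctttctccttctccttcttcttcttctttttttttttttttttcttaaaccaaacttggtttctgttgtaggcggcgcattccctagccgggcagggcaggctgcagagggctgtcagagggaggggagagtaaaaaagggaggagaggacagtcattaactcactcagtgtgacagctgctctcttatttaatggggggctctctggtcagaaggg

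Of these 4 windows, Ltb alone held a match to the NF-kB consensus, GGAAAGTCCC at bases -87 to -78 from the start, which matches on the opposite strand. This consensus was found on either strand in 7.25% of 32851 promoter windows of the same length. TATAAA stood at bases -29 to -24 of Tnf and at -167 to -162 of Lta, and in 12.4% of all windows. No window of the 4 held AP-1 (TGANTCA, 6.75% of windows), ISRE (GAAA, any 2 bases and GAAA again, 2.98%) or PU.1 (GAGGAAGT, 2.44%) letters on either strand. Promoters of 8 of the 10 ligands were in the RefSeq table, and Tnfsf4 and Tnfsf9 were not. Among the remaining 4, Tnfsf14 held 1 AP-1 match at bases -160 to -154, and of 2 windows of Tnfsf13b 1 held an AP-1 match and an ISRE match. A match describes letters only, and no binding was measured.

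The 3′ untranslated region of Tnf is known for AU-rich elements, which shorten the life of the mRNA. Bases 437 to 466 of its 764 bases hold 4 overlapping copies of TTATTTATT, in capitals here.
Tnf AU-rich window: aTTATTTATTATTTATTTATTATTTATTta

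The whole Tnf region held 5 copies of TTATTTATT and 8 of ATTTA. Lta held 1 copy of TTATTTATT and 3 of ATTTA in 572 bases, and Tnfsf13b 1 and 6 in 3631 bases. Ltb held none of either in 156 bases. The remaining 6 ligands held no TTATTTATT and between 1 (Tnfsf14) and 10 (Tnfsf8) copies of ATTTA. Among 10663 tested genes with such a region, of 972 bases in the median, 7.29% held TTATTTATT, 1.49% held at least 2 copies and 66.4% held ATTTA.

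Levels are given in CPM (counts scaled to library size), as 2 to the power of the deposited log2 value, and the quantile normalization of the files makes each level relative to the other genes of its library. The values summed to between 991008 and 999204 CPM, with 10906 to 10997 genes at or above 1 CPM in each library, and the depth in reads is unknown. The 10 listed B cell markers summed to between 14310 and 15940 CPM in unstimulated and between 9529 and 11480 CPM in CL097 libraries. Of the 10, 6 fell, among them Cd79a and Cd79b, and none rose, against 25.8% lower and 25.9% higher over all tested genes. The 9 T cell markers in the files summed to at most 6.71 CPM in any library, and Cd3d, Cd3e and Cd3g were below the level tested. The number 1 libraries stood apart in erythroid markers, with 27.7 CPM unstimulated and 48.3 CPM after CL097, against 805 to 2038 CPM in the others.

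Genes at or above 0.5 CPM in at least 3 libraries were tested with limma, with the number as a block, and calls required a p below 0.05 after Benjamini-Hochberg adjustment over 11844 genes and a log2 fold change (CL097 minus unstimulated) beyond 0.5 in either direction. After 4 h with CL097, transcripts of 6 of the 8 tested ligands rose (Tnf, Lta, Tnfsf4, Tnfsf9, Tnfsf14 and Tnfsf15), Ltb fell, and Tnfsf10 was not called. Over all tested genes 51.7% were called, 25.9% higher and 25.8% lower, so calls in themselves were common. The median log2 fold change was 1.71 over the 8 ligands and 0.002 over all tested genes. All 3 CL097 libraries lay above all 3 unstimulated libraries for the 6 ligands that rose and below them for Ltb, as they did in 33.4% and 32.4% of all tested genes. In bulk samples, a change in the number of cells of a type and a change in RNA per cell cannot be told apart. With number 1 left out of both conditions, the same 6 ligands were called higher and Ltb lower.

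**Figure D1:**
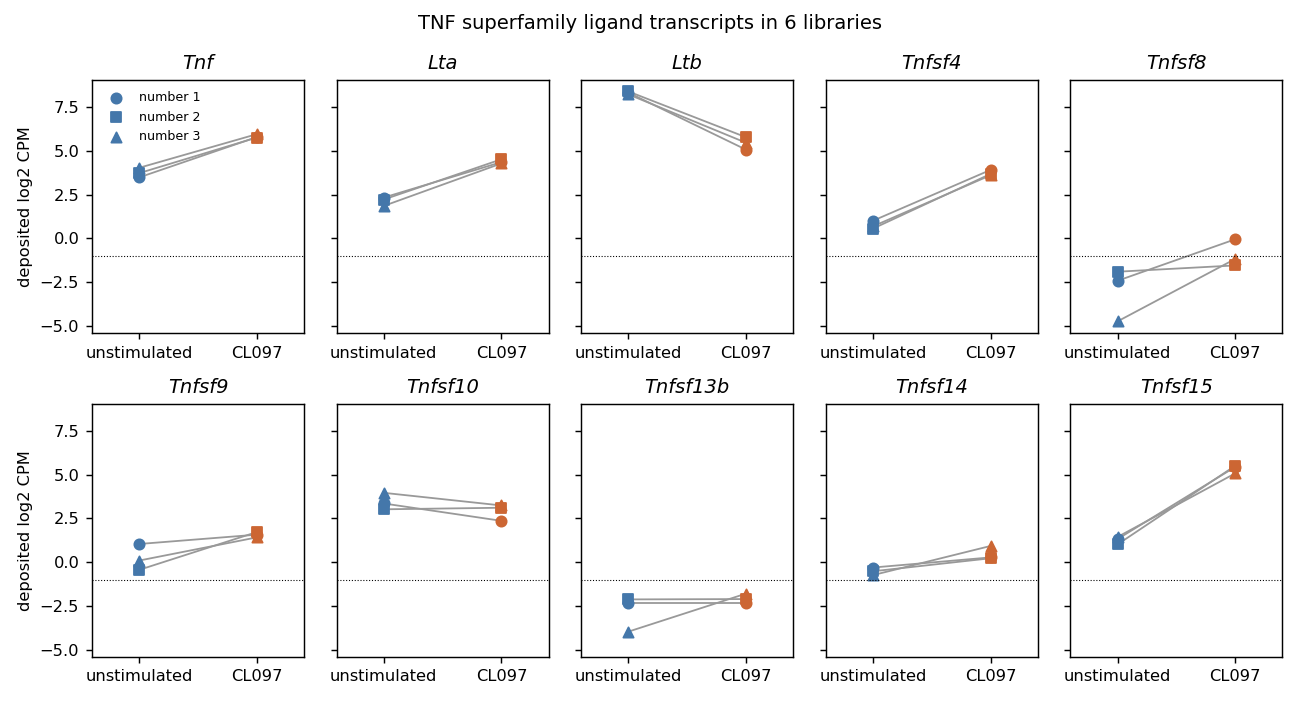
Deposited log2 CPM (vertical axis) of the 10 ligand transcripts in unstimulated (blue) and CL097 (orange) libraries, with lines joining libraries of one number and a dotted line at the lowest level tested. Tnfsf15 rose from 2.03 to 2.73 CPM to 33.7 to 45.6 CPM, Ltb fell in all 3 pairs, and Tnfsf8 and Tnfsf13b lie below the dotted line except for Tnfsf8 in CL097 library 1.

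Tnf encodes the founding cytokine of the family, which acts through the receptors Tnfrsf1a and Tnfrsf1b. Its level was 11.1, 13.1 and 16.2 CPM in unstimulated libraries 1 to 3 and 54.6, 53.7 and 61.4 CPM in the CL097 libraries. The groups did not overlap, and every CL097 library was above 50 CPM. Tnf rose from a mean of 13.5 ± 2.58 to 56.6 ± 4.18 CPM (SD, n = 3), or 4.24-fold with a 95% interval of 3.54 to 5.08 (log2 fold change 2.08, SE 0.11, adjusted p = 5.22e-06).

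Lta encodes lymphotoxin alpha, a soluble cytokine that shares the TNF receptors and also joins lymphotoxin beta at the cell surface. It stood at 5.01, 4.64 and 3.60 CPM without a stimulus and at 20.4, 22.8 and 19.3 CPM after CL097. The groups were apart, with the lowest unstimulated value in library 3. Lta rose 4.75-fold (95% interval 3.72 to 6.06, log2 fold change 2.25, SE 0.15, adjusted p = 1.37e-05).

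Ltb encodes lymphotoxin beta, the membrane subunit that holds lymphotoxin alpha on the cell and gives the complex its binding to Ltbr. Its level was 317, 332 and 296 CPM in unstimulated and 33.2, 54.3 and 43.7 CPM in CL097 libraries. All CL097 libraries were far below the unstimulated ones. Ltb fell by 2.88 on the log2 scale (SE 0.12, adjusted p = 2.25e-06), from 315 ± 18.1 to 43.7 ± 10.5 CPM (SD, n = 3), which was 7.34-fold lower with a 95% interval of 6.02 to 8.95. A change as large in that direction was seen in 0.878% of tested genes.

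Between genes, levels were compared as CPM per kb of annotated exons. Unstimulated cells held 208 ± 12.0 CPM per kb of Ltb, 8.23 ± 1.58 of Tnf and 3.19 ± 0.528 of Lta (SD, n = 3). After CL097 the corresponding levels were 28.8 ± 6.94 for Ltb, 34.5 ± 2.55 for Tnf and 15.1 ± 1.28 for Lta. Tnf and Ltb then overlapped, from 32.8 to 37.5 and from 21.9 to 35.8 CPM per kb. The ratio of Tnf to Ltb, on this scale, was 0.0324, 0.0366 and 0.0507 in unstimulated libraries and 1.52, 0.916 and 1.30 in CL097 libraries. The ratio of Lta to Ltb went from between 0.0133 and 0.0173 to between 0.460 and 0.672, without overlap. The ratio of Tnf to Lta was 1.87 to 3.80 without a stimulus and 1.99 to 2.68 with it, and overlapped.

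Of the 10 listed genes around these 3 ligands, 9 were tested, none was called higher, 2 were called lower and 7 were not called, with a median log2 fold change of -0.01, against 51.7% called over all tested genes. At an unadjusted p under 0.05, 4 were higher and 2 lower. The same 4, Ddx39b, Prrc2a, Csnk2b and Gpank1, had an adjusted p under 0.05 with log2 fold changes of 0.20, 0.26, 0.32 and 0.29, short of the fold threshold. The 2 called genes are named because the count was small. Nfkbil1 went from 14.0 to 9.13 CPM on average (log2 fold change -0.64, SE 0.15, adjusted p = 0.00678). Atp6v1g2 went from 1.06 ± 0.173 to 0.254 ± 0.234 CPM (SD, n = 3, adjusted p = 0.0150) and reached the level tested in all unstimulated libraries and 1 CL097 library, so its difference is partly set by the filter. The count of 2 was 0 without a filter on low values and 1 without unstimulated replicate 2 or CL097 replicate 2.

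**Figure D2:**
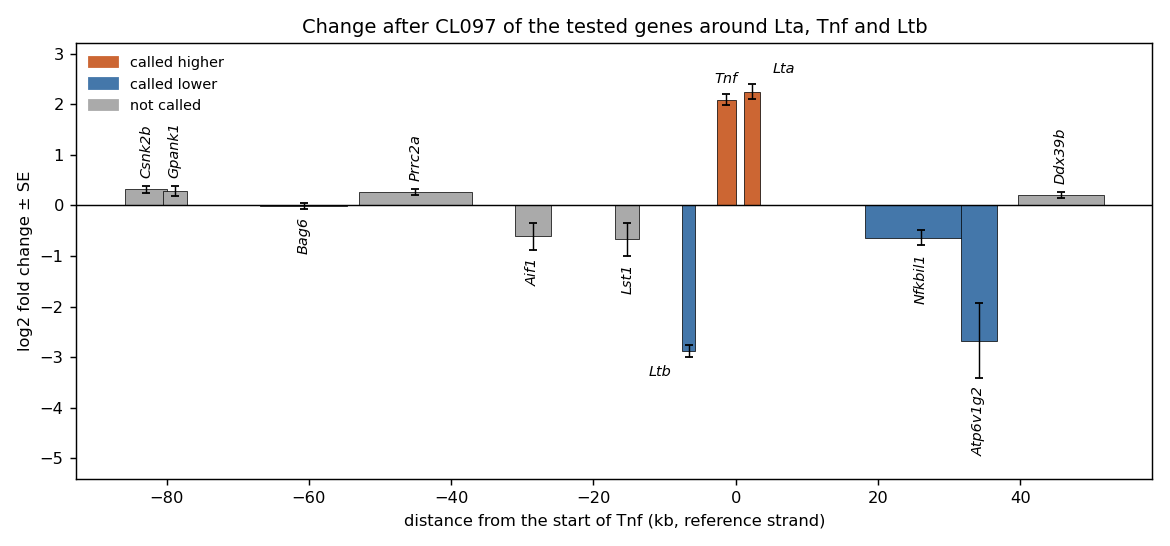
Log2 fold change (vertical axis, with SE bars) of the tested genes around Lta, Tnf and Ltb against the distance from the start of Tnf in kb (horizontal axis), with each bar as wide as the gene. Tnf at 2.08 and Lta at 2.25 stand next to Ltb at -2.88, and the neighbors that fell are Nfkbil1 and Atp6v1g2.

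Tnfsf15 and Tnfsf4 showed the largest rises. Tnfsf15 encodes TL1A, the ligand of the death receptor family member DR3 (Tnfrsf25). Its level was 2.51, 2.03 and 2.73 CPM in unstimulated and 43.5, 45.6 and 33.7 CPM in CL097 libraries. The groups were well apart, and the CL097 library of number 3 was the lowest of its group. Tnfsf15 rose 16.9-fold (95% interval 12.4 to 23.0, log2 fold change 4.08, SE 0.19, adjusted p = 3.09e-06), and 0.186% of tested genes rose at least as much.

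Tnfsf4 encodes OX40 ligand, which antigen-presenting cells show to T cells that carry OX40. The gene lies on the plus strand of chromosome 1, from 161395409 to 161418410, with 3 exons. It stood at 2.01, 1.47 and 1.61 CPM without a stimulus and at 15.0, 12.8 and 12.2 CPM after CL097. The groups did not overlap, and the differences within a number were close to each other, from 2.90 to 3.12 on the log2 scale. Tnfsf4 rose 7.90-fold (95% interval 5.88 to 10.6, log2 fold change 2.98, SE 0.18, adjusted p = 9.05e-06).

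Tnfsf9 and Tnfsf14 rose from low levels, and these calls were less secure. Tnfsf9 encodes 4-1BB ligand, a costimulator of T cells, and lies on chromosome 17 from 57105325 to 57107757 (plus strand, 3 exons). Its level was 2.06, 0.741 and 1.07 CPM in unstimulated and 2.98, 3.31 and 2.68 CPM in CL097 libraries. The unstimulated library of number 1 was nearest to the CL097 group. The fold was 2.53 (95% interval 1.41 to 4.52, log2 fold change 1.34, SE 0.36, adjusted p = 0.0128). The call was lost without replicate 2 of either condition (log2 fold change 0.93, adjusted p = 0.0744 without the unstimulated and 0.0976 without the CL097 library) and without replicate 3 of either (adjusted p = 0.0571 and 0.0640).

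Tnfsf14 encodes LIGHT, which binds the receptors Tnfrsf14 and Ltbr, and lies 81.74 kb from Tnfsf9, from 57189492 to 57194177 on the minus strand with 4 exons. It stood at 0.815, 0.702 and 0.603 CPM without a stimulus and at 1.22, 1.18 and 1.91 CPM with CL097. The groups were apart by less than 0.5 CPM. The fold was 1.99 (95% interval 1.09 to 3.66, log2 fold change 1.00, SE 0.37, adjusted p = 0.0474). The call did not hold without replicate 2 (adjusted p = 0.0919 without the unstimulated and 0.102 without the CL097 library), nor without replicate 3 (log2 fold change 0.66, adjusted p = 0.223 and 0.265).

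Tnfsf10 was the tested ligand with no call. It encodes TRAIL, which can induce cell death through Tnfrsf10b, and lies on chromosome 3 from 27317028 to 27342427 (plus strand, 8 exons). Its level was 10.2, 8.12 and 15.6 CPM in unstimulated and 5.15, 8.64 and 9.45 CPM in CL097 libraries. The groups overlapped, and the CL097 library was lower in 2 of 3 pairs. The log2 fold change was -0.54 (95% interval -1.06 to -0.02, SE 0.22, adjusted p = 0.0643). Without unstimulated replicate 2 or CL097 replicate 2, the number in which it was not lower, Tnfsf10 was called lower (log2 fold change -0.86, adjusted p = 0.0145).

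**Figure D3:**
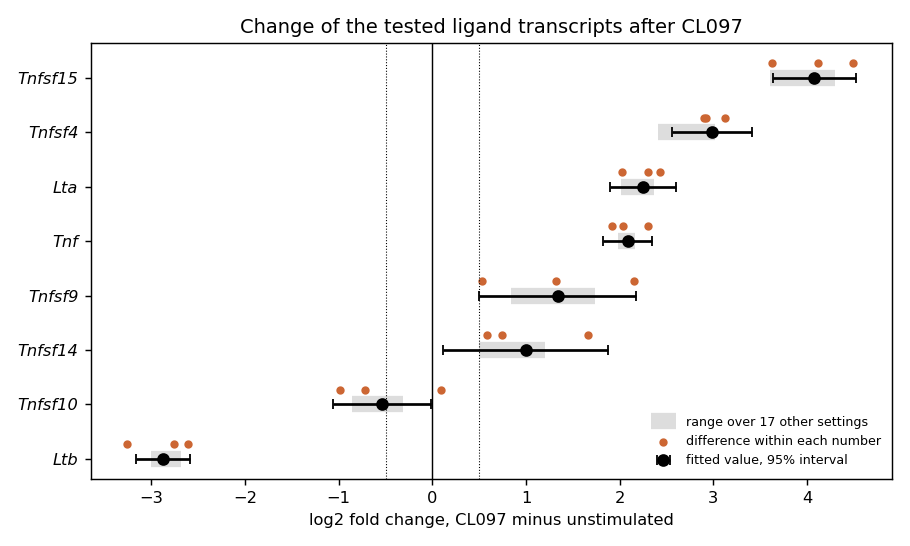
Log2 fold change, CL097 minus unstimulated (horizontal axis), of the 8 tested ligands, with the fitted value and its 95% interval in black, the difference within each number in orange, the range over 17 other settings in grey and dotted lines at a change of 0.5 in either direction. The intervals of Tnfsf15, Tnfsf4, Lta, Tnf and Ltb lie clear of the dotted lines, and those of Tnfsf9, Tnfsf14 and Tnfsf10 reach them.

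The other 2 ligands were too low to test. Tnfsf8, the ligand of CD30, lies on chromosome 4 from 63831308 to 63861347 on the minus strand, 86.19 kb from Tnfsf15. It stood at 0.188, 0.268 and 0.0377 CPM in unstimulated and at 0.967, 0.344 and 0.445 CPM in CL097 libraries. Only the CL097 library of number 1 reached 0.5 CPM, and the groups did not overlap. Tnfsf13b, on chromosome 8 from 10006467 to 10039072 (plus strand), encodes BAFF, the survival factor of mature B cells that myeloid and stromal cells mainly supply. Its level was 0.204, 0.231 and 0.0647 CPM without a stimulus and 0.204, 0.234 and 0.291 CPM with CL097. Those groups overlapped, and both libraries of number 1 held the same value. Fitted without the filter, the adjusted p was 0.185 for Tnfsf8 and 0.460 for Tnfsf13b.

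Ordered by CPM per kb, the unstimulated levels fell into Ltb, then Tnf, then a run from Lta through Tnfsf10, Tnfsf9 and Tnfsf4 to Tnfsf15 in which each neighbor overlapped the next, then Tnfsf14 at 0.383 ± 0.0572, then Tnfsf8 and Tnfsf13b, which overlapped below 0.1 CPM per kb. After CL097 the order was Tnf and Ltb, which overlapped, then Lta at 15.1, Tnfsf15 at 12.2 ± 1.90, Tnfsf4 at 7.23 ± 0.810 and Tnfsf9 at 2.32 ± 0.243 CPM per kb (SD, n = 3). Each of these last 4 lay apart from the next. Tnfsf10 at 1.47 ± 0.434 overlapped Tnfsf14 at 0.777 ± 0.224, and Tnfsf8 and Tnfsf13b stayed lowest. Tnfsf15 moved from the 7th to the 4th place.

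**Figure D4:**
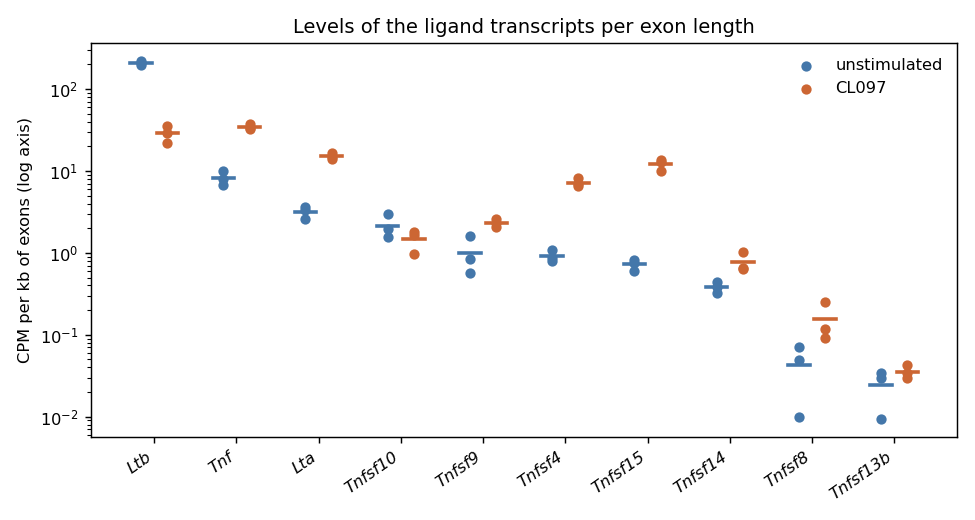
Level in CPM per kb of exons (vertical log axis) of the 10 ligands in 3 unstimulated (blue) and 3 CL097 (orange) libraries, ordered by the unstimulated mean, with bars at the group means. Ltb stands at 208 CPM per kb before and 28.8 after CL097, where it overlaps Tnf.

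The other ligands of the superfamily that were listed, Fasl, Cd40lg, Cd70, Tnfsf11, Tnfsf12, Tnfsf13, Tnfsf18 and Eda, were all too low to test, with the highest group mean at 0.494 CPM for unstimulated Tnfsf12. Since all 8 were below the filter, nothing is said of their direction.

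Receptors of the ligands were read in the same cells. Of 15 listed, 13 were tested, 8 were called higher, none was called lower and 5 were not called, with a median log2 fold change of 0.97. Over all tested genes 25.9% were called higher. At an unadjusted p under 0.05, 9 were higher and 2 lower. Tnfrsf25 passed the filter through the CL097 libraries alone and Tnfrsf8 through these and 1 unstimulated library, so these 2 calls are set in part by the filter and are given as values only. The count of 8 and the median of 0.97 include these 2 and are not read against the share over all genes. The other 6 that were called higher passed in all 6 libraries. The count of 8 was 5 without CL097 replicate 3 and 5 without a filter on low values.

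The TNF receptors Tnfrsf1a and Tnfrsf1b, which Tnf and Lta share, were not called, nor was Ltbr. Tnfrsf1b, the receptor of TNF on lymphocytes, went from 186 ± 10.3 to 260 ± 22.6 CPM (SD, n = 3), which fell short of the fold threshold (log2 fold change 0.48, SE 0.06, adjusted p = 0.000337). Tnfrsf1a, which carries a death domain, stood at 2.27, 4.29 and 8.34 CPM in unstimulated and 1.46, 2.91 and 6.82 CPM in CL097 libraries. The groups overlapped, while each CL097 library was below the unstimulated one of its number (log2 fold change -0.50, SE 0.20, adjusted p = 0.0637). Ltbr, the receptor of surface lymphotoxin and of LIGHT, is mainly a receptor of stromal and myeloid cells and was at 2.67 ± 1.34 and 1.46 ± 0.306 CPM (log2 fold change -0.74, SE 0.30, adjusted p = 0.0645).

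Of the receptors of the costimulatory ligands, Tnfrsf9, Tnfrsf4 and Tnfrsf14 were called higher, and Tnfrsf8 and Tnfrsf25 are given as values only. Tnfrsf8, which encodes CD30, was at 0.618, 0.255 and 0.291 CPM in unstimulated and 9.49, 6.63 and 8.75 CPM in CL097 libraries. Tnfrsf9, which encodes 4-1BB, rose from 4.82 ± 1.04 to 15.0 ± 3.67 CPM (log2 fold change 1.63, SE 0.22), and Tnfrsf4, which encodes OX40, from 2.50 ± 0.479 to 4.89 ± 0.843 CPM (log2 fold change 0.97, SE 0.20). Tnfrsf14, the receptor of LIGHT that lymphocytes carry, rose from 7.88 ± 1.29 to 13.2 ± 1.86 CPM (log2 fold change 0.74, SE 0.18). Tnfrsf25, which encodes DR3, was near the floor of the values at 0.0242, 0.184 and 0.0427 CPM without a stimulus and stood at 1.13, 0.509 and 0.997 CPM with CL097, and no fold or test is given for it.

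Among the TRAIL receptors, the death receptor Tnfrsf10b rose from 2.46 ± 0.607 to 4.91 ± 0.514 CPM (log2 fold change 1.02, SE 0.23, adjusted p = 0.00636). The mouse decoy receptor Tnfrsf22 rose from 7.56 ± 0.769 to 21.5 ± 2.07 CPM (log2 fold change 1.51, SE 0.13). The related decoy Tnfrsf23 was not called (log2 fold change -0.38, SE 0.28), and the soluble decoy Tnfrsf11b was below the level tested. Among the BAFF receptors, Tnfrsf13b, which encodes TACI, stood at 29.9, 30.9 and 23.3 CPM in unstimulated and at 132, 115 and 123 CPM in CL097 libraries. It rose by 2.15 on the log2 scale (SE 0.11). Tnfrsf13c, which encodes the BAFF receptor, was at 202 ± 42.1 and 185 ± 15.4 CPM and was not called (log2 fold change -0.11, SE 0.09), and Tnfrsf17, a plasma cell receptor, was below the level tested.

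**Figure D5:**
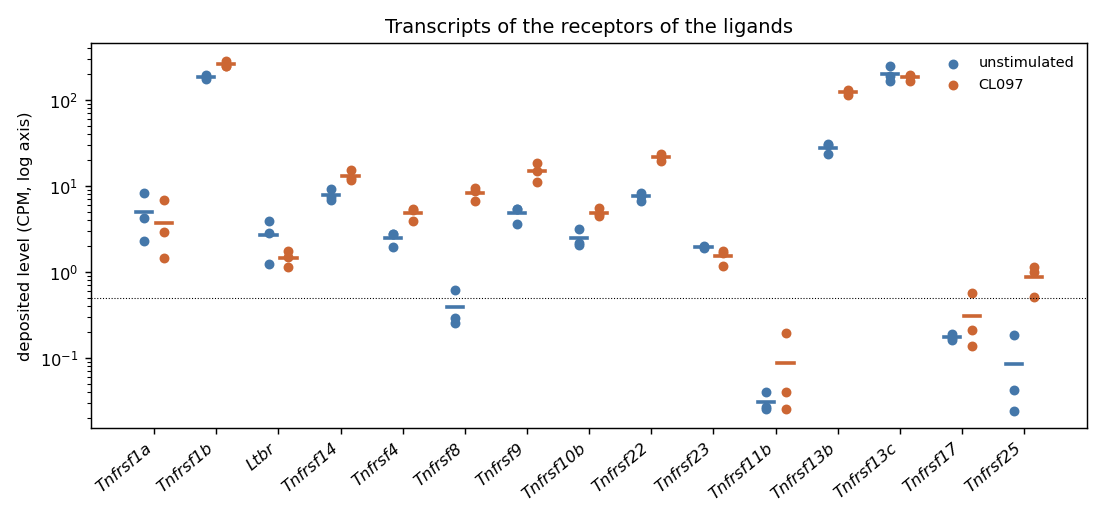
Level in CPM (vertical log axis) of 15 receptor transcripts in 3 unstimulated (blue) and 3 CL097 (orange) libraries, with bars at the group means and a dotted line at 0.5 CPM, the lowest level tested. Tnfrsf13b shows groups that are well apart, and Tnfrsf13c shows groups that overlap.

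Of 9 tested genes of ligand shedding and processing, 2 rose and 5 fell, against 25.9% and 25.8% of all tested genes, and the median log2 fold change was -0.65. Adam17, the protease that releases TNF, fell from 192 ± 15.4 to 111 ± 5.48 CPM (SD, n = 3, log2 fold change -0.78, SE 0.07). Frmd8, which stabilizes the iRhom and ADAM17 complex at the cell surface, fell by 1.61 on the log2 scale (SE 0.10), and Sppl2a, an intramembrane protease that cuts the stub left by shedding, by 0.84 (SE 0.08). Adam10 and Pcsk7 also fell. Furin, a proprotein convertase, rose from 103 ± 9.15 to 304 ± 13.4 CPM (log2 fold change 1.57, SE 0.07), and Rhbdf2, which encodes iRhom2, the partner that ADAM17 needs to mature, rose by 0.64 (SE 0.09).

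Of 12 listed genes that act on mRNA decay or translation, 3 rose and 2 fell. That share was below the 51.7% called over all tested genes, and the median log2 fold change was 0.20. Zfp36l2, which promotes decay of AU-rich mRNA, fell from 199 ± 6.70 to 47.3 ± 2.15 CPM (log2 fold change -2.07, SE 0.07). Zc3h12a, the RNase Regnase-1, rose from 73.4 ± 12.3 to 170 ± 12.5 CPM (log2 fold change 1.22, SE 0.12). Elavl1, whose protein HuR stabilizes AU-rich mRNA, rose by 0.65 (SE 0.07) and Hnrnpd, which encodes AUF1, by 0.54 (SE 0.06). Tia1, a translational repressor of Tnf mRNA, fell by 0.53 on the log2 scale (SE 0.11). Zfp36, which encodes tristetraprolin and was named after its values were seen because it acts on Tnf mRNA, was at 378 ± 39.8 and 444 ± 109 CPM and was not called (adjusted p = 0.111).

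Of 10 listed genes of NF-kB subunits, kinase components and an inhibitor, 3 rose and 2 fell. That share was close to the 51.7% called over all tested genes, and the median log2 fold change was 0.12. Nfkb1 rose from 740 ± 21.6 to 2210 ± 111 CPM (log2 fold change 1.58, SE 0.05) and Nfkbia, which encodes the inhibitor IkBa, from 209 ± 26.6 to 645 ± 23.6 CPM (log2 fold change 1.63, SE 0.07). Nfkb2 rose by 0.74 on that scale (SE 0.05). Map3k14, which encodes the kinase NIK of the noncanonical pathway, fell by 0.93 (SE 0.09), and Ikbkg, which encodes NEMO, fell by 0.82 (SE 0.09).

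Other cells can carry some of these ligands, and markers of these cells were read beside them. The counts of called markers stand beside 25.9% called higher and 25.8% called lower over all tested genes. Summed dendritic cell markers went from between 32.8 and 50.2 CPM to between 77.3 and 95.5 CPM, mostly through Zbtb46, which rose from 8.22 to 47.7 CPM on average. The median log2 fold change of the 5 tested dendritic cell markers was -0.003, with Itgax lower, Flt3, Siglech and Ccr9 not called, and Xcr1, Clec9a, Cd209a, Clec10a and Batf3 below the level tested. Of 9 tested monocyte and macrophage markers, 1 rose and 5 fell, with sums of 99.7 to 421 CPM before and 65.6 to 207 CPM after CL097. Of 4 tested T cell markers, Cd5 fell and Cd4 was not called, with sums of 4.67 to 5.46 and 4.99 to 6.71 CPM. Cd8a and Cd8b1 passed the filter through the CL097 libraries alone, with means of 0.281 and 0.145 CPM before and 1.74 and 0.911 CPM after CL097, and their difference is not read as a call. NK cell sums were 7.53 to 9.87 and 4.64 to 8.81 CPM (2 of 5 tested were called lower, of which Klrd1 passed the filter through the unstimulated libraries alone), and neutrophil sums 26.2 to 64.1 and 14.6 to 44.8 CPM (4 of 7 fell). Platelet sums were 88.6 to 118 and 22.6 to 25.4 CPM, and nearly all of that difference was Itgb3, which fell from between 83.2 and 112 CPM to between 16.6 and 19.3 CPM, while Pf4, Ppbp, Itga2b and Gp1ba were not called. Plasma cell sums were 362 to 390 and 147 to 163 CPM (3 of 4 fell), and of 5 tested erythroid markers 4 rose, while Hba-a1 and Hba-a2 were at the floor. The part of these cells in the ligand values was not tested.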

How the data were processed

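RNA was measured in 6 libraries of purified B cells, and 8 of 10 ligands and 11844 of 23420 genes were tested. Libraries were made with a stranded mRNA kit. Per the submitters' processing notes, reads were handled with Trim Galore 0.6.5 and FastQC 0.11.7, STAR 2.6.1a (build mm10), Subread 2.0.1 with its featureCounts, and limma. The authors deposited log2 CPM after voom with quantile normalization. For the counting, the annotation and strand setting were not given in the sources used here, so reads of overlapping antisense genes cannot be separated. Depth is unknown.

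Here, genes at or above 0.5 CPM in at least 3 libraries were fitted under R 4.3.3 with limma 3.58.1, on the log2 values as they were, with group and replicate number as terms, a variance trend and two-sided Benjamini-Hochberg adjusted p-values, and the script was tested on simulated data. Whether a number stands for 1 mouse is not in the labels. After removing group means, values correlated within each number (0.568, 0.326 and 0.458 over 11844 genes), above the limit of 0.1, and between numbers from -0.485 to 0.209. Of 17935 genes not constant, 2655 to 3108 held equal values in both libraries of a number and 347 to 396 in libraries of different numbers. How that sharing arose, and its part in the correlations, was not tested. P-values measure only the spread between these libraries. A sign-flip permutation test of 1 gene over 3 pairs cannot go below 0.25 and was not used.

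All 10 ligands were named, with every receptor and up to 4 called genes of largest change in the other lists. Further list members were named after their values were seen. Members and lists were chosen with earlier results of these data known. Of the symbols, 21737 had one match in GENCODE M21, which gave exon lengths, and the transcript with the longest coding part gave the 3′ region. No correlation across libraries is given, because the conditions form separate clusters. Alternatives were no block, no or a stricter filter, log2(CPM + 1), other variance models, cyclic loess, median centring, other call thresholds and leaving out libraries.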

Additional observations from a re-analysis of the deposited data

How the results depend on the processing

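Tnf, Lta, Ltb, Tnfsf4 and Tnfsf15 kept their call under all 17 alternatives, with log2 fold changes of 1.98 to 2.17, 2.02 to 2.36, -3.01 to -2.69, 2.41 to 3.02 and 3.61 to 4.30. Tnfsf9 lost its call in 5 (0.84 to 1.74) and Tnfsf14 in 6 (0.50 to 1.20), and Tnfsf10 gained one in 2 (-0.86 to -0.32). Without a filter the adjusted p was 0.134 for Tnfsf9 and 0.156 for Tnfsf14. No ligand reversed. Without the replicate block 5636 genes were called against 6121 with it, 5635 of them in both and in the same direction. All 8 tested ligands had the same call, 7 in all, with adjusted p = 0.0207 for Tnfsf9, 0.0468 for Tnfsf14 and 0.167 for Tnfsf10, and no count of called genes in the lists changed without the block.

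Leaving out 1 library with the block removes its partner too and leaves 1 residual degree of freedom, so the variance then comes mainly from other genes. Over these fits 5 to 7 ligands, 5 to 9 receptors and 1 to 3 neighbors were called. At a log2 fold change over 1, 3374 genes, 2 shedding genes, 2 mRNA decay genes, 2 NF-kB genes and 1 neighbor were called. With adjusted p alone 9 mRNA decay genes and 6 neighbors were called, 4 of these neighbors higher and 2 lower. Without a filter 5 receptors and 0 neighbors were called, and with the stricter filter 1 neighbor. Low levels limit Tnfsf8, Tnfsf9, Tnfsf13b and Tnfsf14 most.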
